A study of Mus musculus with 16 samples.

Results

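Caveola and transcytosis genes were examined in RNA from mouse cortex. The 8 genes were the caveolin genes Cav1 and Cav2, the cavin genes Cavin1, Cavin2 and Cavin3, the EHD genes Ehd2 and Ehd4, and Plvap. They were listed by role in vesicle transport across the endothelium, with earlier results of these data known. The genes were found by symbol among the 55487 genes of the table. All 8 had at least 1 CPM (reads on a gene per 1000000 reads on all genes of the sample) in at least 3 samples, the condition for testing, which 18859 genes met. Wild-type C57Bl6 males, 2 months old, received intraperitoneal lipopolysaccharide (LPS, a bacterial cell wall product that starts an innate immune response) at 2 mg/kg, or phosphate-buffered saline (PBS). Injections were given on 2 days in a row at zeitgeber time (ZT) 1, early in the light phase, or at ZT13, early in the dark phase, and cortex was taken on the third day. Each time had 3 mice with PBS and 5 with LPS, 16 samples in all. The comparisons ask how the cortical response to LPS differs with time of day (TOD).

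Caveolae are small flask-shaped pits of the plasma membrane that can bud off and carry cargo through an endothelial cell, a route called transcytosis. Caveolins build the pit, cavins coat it, and EHD ATPases hold its neck at the surface. Brain endothelium keeps few caveolae, and the lipid transporter MFSD2A limits their formation. PLVAP forms the diaphragms that span caveolae and fenestrae, and it is scarce in mature blood-brain barrier vessels but present in those of the choroid plexus.

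Depth lay between 20251840 and 29112758 reads on genes per sample. Groups follow the sample titles, and the separate treatment field contradicts the title in 12 of the 16 samples. The summed level of 3 label check genes, a pair of acute-phase genes and a clock output gene, was 37.4 to 111 CPM in PBS mice and 196 to 837 CPM in LPS mice. Markers of cortical neurons summed to between 1638 and 1937 CPM, so the labelled tissue was present in every sample. Choroid plexus markers ranged from 8.04 to 917 CPM and varied inside every group, so some samples held this neighbouring tissue. The ZT1 LPS mouse 2 stood apart among the LPS mice. It had the lowest summed endothelial markers of that treatment, at 107 CPM, and the lowest pericyte markers of all samples, at 160 CPM. Its smooth muscle markers, at 12.95 CPM, were also the lowest of all samples. Its microglia (141 CPM), astrocyte (1193 CPM) and neutrophil markers (7.70 CPM) were the lowest of the LPS mice. Its fibroblast (108 CPM) and cortical neuron markers (1795 CPM) lay inside the range of the other LPS mice.

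The sequence before the transcription start is shown for 4 members, the pair of EHD genes, which with Cavin1 rose after LPS at both times, and the pair of caveolin genes, which are neighbours on chromosome 6. RefSeq promoters of build GRCm38.p6 were matched for 6 of the 8 members, and Cavin3 and Plvap were not matched. Up to 250 bases before the start are printed 5′ to 3′ on the strand of the gene, without bases that lie inside the annotated gene. Capitals mark the matches to the motifs named after them, on either strand.
Ehd2 (chr7:15967568-15967785, minus strand): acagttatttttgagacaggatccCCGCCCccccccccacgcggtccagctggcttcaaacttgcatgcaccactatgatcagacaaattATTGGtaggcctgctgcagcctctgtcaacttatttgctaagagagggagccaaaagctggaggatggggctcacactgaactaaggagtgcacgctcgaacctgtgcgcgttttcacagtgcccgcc
Ehd4 (chr2:120154607-120154825, minus strand): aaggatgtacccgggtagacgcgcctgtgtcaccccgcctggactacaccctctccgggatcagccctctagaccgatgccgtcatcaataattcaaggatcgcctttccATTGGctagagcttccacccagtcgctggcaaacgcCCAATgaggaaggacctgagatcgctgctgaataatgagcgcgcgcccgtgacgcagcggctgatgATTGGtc
Cav1 (chr6:17306085-17306334, plus strand): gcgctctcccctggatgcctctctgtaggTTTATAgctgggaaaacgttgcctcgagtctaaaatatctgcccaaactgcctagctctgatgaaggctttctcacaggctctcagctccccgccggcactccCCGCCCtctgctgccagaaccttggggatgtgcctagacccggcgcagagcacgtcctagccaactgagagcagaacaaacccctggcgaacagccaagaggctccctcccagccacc
Cav2 (chr6:17280935-17281184, plus strand): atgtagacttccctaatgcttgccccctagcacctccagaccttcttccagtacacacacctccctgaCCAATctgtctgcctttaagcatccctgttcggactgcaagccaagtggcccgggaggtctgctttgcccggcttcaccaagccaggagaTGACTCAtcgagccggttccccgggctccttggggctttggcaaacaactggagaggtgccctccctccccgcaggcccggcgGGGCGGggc

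Both EHD promoters held CCAAT boxes (CCAAT), a single copy in Ehd2 and 3 copies in Ehd4. The CCAAT box was in 5 of the 6 matched members and in 33.8% of all 32851 promoters of the same length. The GC box (GGGCGG) was in 5 of the 6 members and in 32.7% of all promoters. These counts include bases inside the annotated gene, which are not printed. The Ehd4 GC box, 20 bases before the start, and the Cavin1 matches to both motifs lie in such bases. Cav1 and Cav2 differed in the other motifs. Cav1 held a TATA box (TATAAA) on the minus strand, its first base 221 bases before the start, a motif of 12.4% of all promoters. Cav2 held a palindromic AP-1 motif (TGANTCA) 92 bases before the start, a motif of 6.75% of promoters. The E-box CACGTG (6.02% of promoters), the STAT motif TTCNNNGAA (7.02%) and the NF-kB motif (7.25%) were in 0 of the 6 members within this window. No match overlapped another motif. A match describes the letters only.

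Ehd2, Cavin1 and Ehd4 were called higher after LPS at both times of day, Ehd2 with the largest change. At ZT1 4 of the 8 genes rose (Cavin1, Cavin2, Ehd2 and Ehd4) and 0 fell, where 16.2% of all tested genes changed and 11.1% rose. At ZT13 7 of 8 rose, all but Cavin2, and 0 fell, where 28.6% of all genes changed and 19.2% rose. When values were scaled to 8 endothelial marker genes, which themselves rose with LPS, only Ehd2 stayed higher past the threshold, while 4 of the 8 members at ZT1 and 7 at ZT13 were lower. On that scale 86.1% of all tested genes were called lower at ZT1 and 95.1% at ZT13, and 2.39% and 2.10% higher. The members' median log2 fold change was 0.36 for ZT1 and 0.46 for ZT13, against 0.04 and 0.05 over all tested genes. The groups did not overlap for 5 members at ZT1 and 7 at ZT13, always with LPS higher, against 15.9% and 20.9% of all genes. Without the ZT1 LPS mouse 2, which stood apart, 5 members were called at ZT1, all higher, and 0 in the time comparison of LPS mice and the interaction. Tests are limma fits on log2(CPM + 0.5), with Benjamini-Hochberg adjustment over all tested genes and a threshold of 0.05. In whole tissue, more cells of a type and more RNA per cell cannot be told apart.

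**Figure D1:**
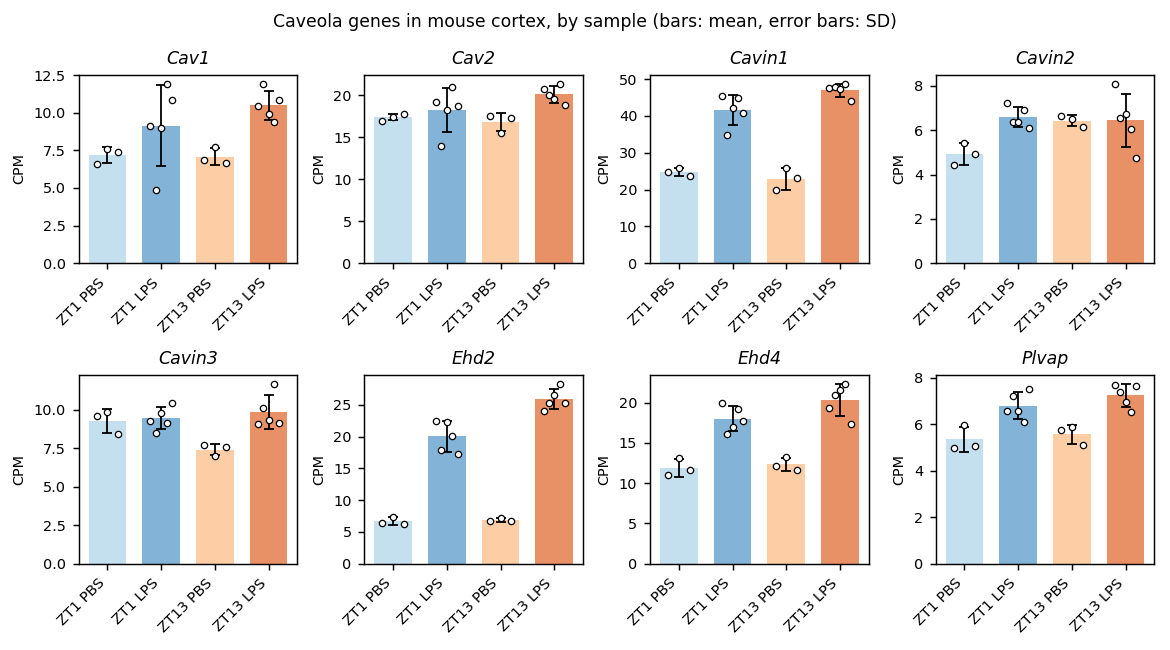
Level of each of the 8 genes in CPM in every mouse (points), with the group mean (bar) and SD (error bar), for 3 PBS and 5 LPS mice at each time. Ehd2 and Cavin1 in the LPS mice lie above every PBS mouse at both times, and Cav1 at ZT1 holds a single LPS mouse, at 4.83 CPM, that is below all PBS mice.

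Cav1 encodes caveolin-1, the structural protein without which endothelial caveolae do not form. The gene lies on chromosome 6 at 17306335 to 17341452 (GRCm38, plus strand), and Cav2, whose protein joins caveolin-1 in mixed oligomers, lies at 17281185 to 17289115 on the same strand, 17219 bases away. Cav1 was at 6.61, 7.60 and 7.37 CPM in ZT1 PBS mice and at 9.10, 4.83, 8.97, 11.9 and 10.9 CPM in ZT1 LPS mice. Of the 5 LPS mice, 4 were above all controls and mouse 2 was the lowest of all 16. The log2 fold change of 0.27 (SE 0.22) did not pass the test (adjusted p = 0.457). Without LPS mouse 2 it was 0.47 with adjusted p = 0.0153, whereas it did not pass without any other mouse, up to adjusted p = 0.683.

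At ZT13 Cav1 was at 6.87, 7.72 and 6.67 CPM in PBS mice and at 10.5, 11.9, 9.89, 9.40 and 10.8 CPM in LPS mice. Every LPS mouse was above every control, and the gene rose 1.45-fold, a log2 fold change of 0.53 (SE 0.09, adjusted p = 5.94e-04). The LPS effect at ZT13 exceeded that at ZT1 by 0.26 on the log2 scale (SE 0.26), and this TOD × treatment interaction did not pass (adjusted p = 0.823).

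Cav2 moved less than its neighbour. It was at 17.0, 17.4 and 17.7 CPM in ZT1 PBS mice and at 19.2, 13.9, 18.2, 21.0 and 18.7 CPM in ZT1 LPS mice. The same mouse 2 was again the lowest of all samples, and the log2 fold change of 0.05 (SE 0.11) did not pass (adjusted p = 0.792, 95% CI -0.19 to 0.29). At ZT13 it was at 17.5, 15.5 and 17.2 CPM in PBS mice and at 20.7, 20.03, 19.6, 21.4 and 18.8 CPM in LPS mice. These groups did not overlap, and Cav2 rose 1.19-fold (log2 0.26, SE 0.07, adjusted p = 0.00933). The call was lost under quantile normalization (adjusted p = 0.084, with 0.00526 to 0.084 over the alternatives other than endothelial scaling, as in all such ranges here) and without ZT13 PBS mouse 2 (0.061, with 0.00594 to 0.061 over the fits that leave out a mouse). The interaction was 0.20 (SE 0.13, adjusted p = 0.702).

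Cavin1 encodes the cavin needed for the caveolar coat to assemble. It was the most abundant member per kilobase in both treatments and lies on chromosome 11 at 100956733 to 100970887 (minus strand). At ZT1 it was at 24.7, 25.9 and 23.6 CPM in PBS mice and at 45.3, 34.9, 42.3, 44.8 and 40.7 CPM in LPS mice. Even the lowest LPS mouse, mouse 2, was above every control, and Cavin1 rose 1.66-fold (log2 0.73, SE 0.08, adjusted p = 1.28e-04). In the ZT13 groups Cavin1 was at 19.9, 25.9 and 23.1 CPM in PBS mice and at 47.5, 47.8, 47.3, 48.6 and 44.0 CPM in LPS mice. The LPS mice of this time lay close together and far above the controls, and the gene rose 2.04-fold (log2 1.03, SE 0.07, adjusted p = 1.32e-07). The interaction of 0.29 (SE 0.11) had an unadjusted p of 0.0201 and an adjusted p of 0.410.

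Cavin2 encodes a cavin that helps to bend the membrane, and it lies on chromosome 1 at 51289126 to 51302960 (plus strand). Its pattern differed from that of Cavin1, with the PBS mice of ZT1 the low group. At ZT1 it was at 4.44, 5.43 and 4.93 CPM in PBS mice and at 7.23, 6.36, 6.39, 6.93 and 6.12 CPM in LPS mice. All LPS mice were above all controls, and Cavin2 rose 1.31-fold (log2 0.39, SE 0.10, adjusted p = 0.0227). It passed in 9 of 11 alternatives other than endothelial scaling, and was lost under quantile normalization among others (adjusted p = 0.101, with 0.0118 to 0.101 over the 11) and without any one of ZT1 PBS mouse 1, ZT1 PBS mouse 3 and ZT1 LPS mouse 4 (up to 0.108). In the ZT13 groups Cavin2 was at 6.64, 6.52 and 6.14 CPM in PBS mice and at 8.10, 6.53, 6.75, 6.06 and 4.75 CPM in LPS mice. Here the controls lay inside the range of the LPS mice, and the log2 difference was -0.02 (SE 0.13, adjusted p = 0.946, 95% CI -0.30 to 0.27). The interaction was -0.41 (SE 0.17), with unadjusted p = 0.0298 and adjusted p = 0.467, so the effects at the 2 times were not shown to differ.

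Cavin3 encodes a cavin first known as a protein kinase C binding protein, and it lies on chromosome 7 at 105480083 to 105482300 (minus strand). It was at 9.57, 9.81 and 8.38 CPM in ZT1 PBS mice and at 9.29, 8.51, 9.77, 9.14 and 10.4 CPM in ZT1 LPS mice. These groups overlapped almost fully, with a log2 fold change of 0.02 (SE 0.09, adjusted p = 0.894, 95% CI -0.17 to 0.22). By contrast, Cavin3 at ZT13 was at 7.67, 6.97 and 7.56 CPM in PBS mice and at 9.05, 10.1, 9.29, 11.7 and 9.13 CPM in LPS mice. The LPS mice were at the level of the ZT1 groups and the ZT13 controls were the low group, and Cavin3 rose 1.31-fold (log2 0.39, SE 0.10, adjusted p = 0.00774). Quantile normalization ended this call (adjusted p = 0.133, with 0.00369 to 0.133 over the alternatives). The interaction of 0.36 (SE 0.13) had an unadjusted p of 0.0120 and an adjusted p of 0.363.

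Ehd2 encodes the ATPase that forms a ring at the caveolar neck and keeps caveolae at the surface. It lies on chromosome 7 at 15946958 to 15967567 (minus strand), just beside the promoter printed above. It was at 6.46, 7.36 and 6.23 CPM in ZT1 PBS mice and at 22.5, 17.9, 22.4, 20.1 and 17.3 CPM in ZT1 LPS mice. All LPS mice were far above the highest control, and Ehd2 rose 2.85-fold (log2 1.51, SE 0.10, adjusted p = 4.09e-06). At ZT13 it was at 6.68, 7.22 and 6.63 CPM in PBS mice and at 24.0, 25.4, 26.5, 28.3 and 25.3 CPM in LPS mice. The gap was wider at this time, and the gene rose 3.59-fold (log2 1.85, SE 0.07, adjusted p = 4.09e-10). The difference between these effects was 0.34 (SE 0.13, unadjusted p = 0.0152), which did not pass after adjustment (adjusted p = 0.388). Both LPS calls held in all fits that left out a mouse, with log2 fold changes of 1.46 to 1.58 at ZT1 and 1.81 to 1.88 at ZT13.

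Ehd4 encodes a related EHD protein that acts in endosomal recycling and can also be found at caveolae. It lies on chromosome 2 at 120089175 to 120154606 (minus strand). It was at 11.0, 13.1 and 11.6 CPM in ZT1 PBS mice and at 20.01, 16.2, 17.0, 19.2 and 17.7 CPM in ZT1 LPS mice. No LPS mouse reached down to the controls, and Ehd4 rose 1.49-fold (log2 0.58, SE 0.09, adjusted p = 0.00121). The ZT13 values were 12.1, 13.3 and 11.7 CPM in PBS mice and 19.3, 21.0, 21.6, 22.4 and 17.4 CPM in LPS mice. The separation was again complete, with a 1.62-fold rise (log2 0.69, SE 0.08, adjusted p = 2.69e-05) and an interaction of 0.12 (SE 0.12, adjusted p = 0.845).

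Plvap lies on chromosome 8 at 71497765 to 71511752 (minus strand). It was at 4.98, 5.97 and 5.05 CPM in ZT1 PBS mice and at 6.58, 7.21, 6.56, 6.09 and 7.52 CPM in ZT1 LPS mice. All LPS mice were above all controls, yet the log2 fold change of 0.32 (SE 0.10) had an adjusted p of 0.0560. It passed in a single fit of all 16 samples (adjusted p = 0.0184) and without the intensity trend (0.048), over a range of 0.0184 to 0.332. In the ZT13 groups Plvap was at 5.73, 5.87 and 5.11 CPM in PBS mice and at 7.66, 7.39, 6.96, 6.52 and 7.66 CPM in LPS mice. Again the groups did not overlap, and Plvap rose 1.27-fold (log2 0.35, SE 0.09, adjusted p = 0.0127). This call was lost under quantile normalization (adjusted p = 0.286, with 0.00815 to 0.286 over the alternatives) and without ZT13 PBS mouse 3 (0.0663, with 0.0114 to 0.0663 over the fits that leave out a mouse). The interaction was 0.03 (SE 0.13, adjusted p = 0.975, 95% CI -0.25 to 0.30).

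Choroid plexus tissue varied among samples, and Plvap marks its vessels, so both levels were set side by side. In ZT13 PBS mice the choroid plexus markers summed to 917, 9.90 and 518 CPM while Plvap was at 5.73, 5.87 and 5.11 CPM. In ZT1 LPS mice they summed to 821, 10.5, 392, 15.5 and 529 CPM while Plvap was at 6.58, 7.21, 6.56, 6.09 and 7.52 CPM. In ZT1 PBS mice they summed to 8.04, 868 and 13.9 CPM while Plvap was at 4.98, 5.97 and 5.05 CPM, so the mouse rich in these markers had the most Plvap. In ZT13 LPS mice they summed to 223, 30.4, 152, 185 and 559 CPM while Plvap was at 7.66, 7.39, 6.96, 6.52 and 7.66 CPM. With the choroid plexus level as a covariate, an alternative chosen after seeing the data, Plvap had a log2 fold change of 0.29 (adjusted p = 0.0919) at ZT1 and 0.35 (adjusted p = 0.0168) at ZT13. The members called numbered 4 and 7 in this fit, as without it.

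**Figure D2:**
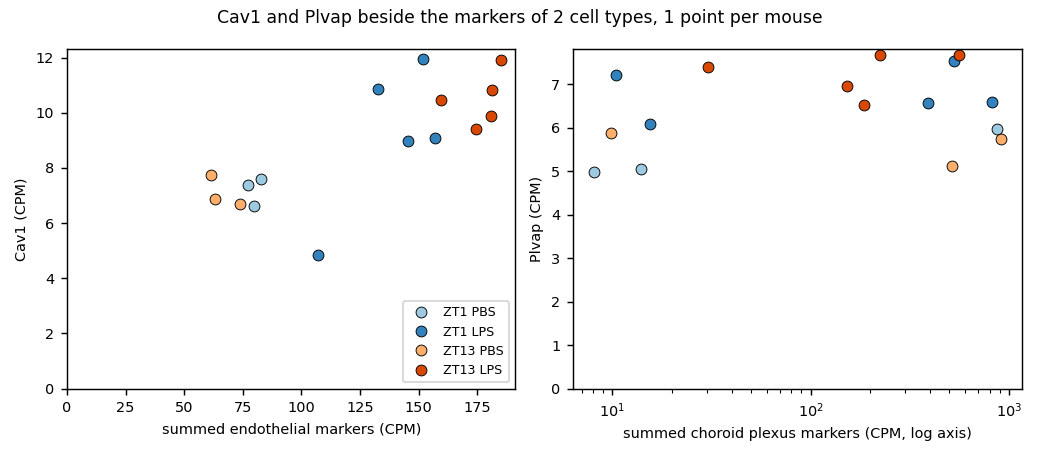
Left, Cav1 in CPM against the summed CPM of 8 endothelial markers. Right, Plvap in CPM against the summed CPM of 5 choroid plexus markers on a log axis, with 1 point per mouse coloured by group. The ZT1 LPS mouse at 4.83 CPM of Cav1 has the lowest endothelial sum of the LPS mice, 107 CPM, and Plvap is at 5.87 CPM for a choroid plexus sum of 9.90 and 5.73 CPM for a sum of 917 in ZT13 PBS mice, but at 4.98 CPM for a sum of 8.04 and 5.97 CPM for a sum of 868 in ZT1 PBS mice.

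Within one treatment, the reported fit called no member between the times of day. In LPS mice, ZT13 against ZT1, limma called 0 of 8 members, where it called 0.0212% of all genes, and 3 members (Cavin1, Ehd2 and Ehd4) had an unadjusted p under 0.05, a limit that 10.6% of all genes met. The members' median log2 difference was 0.16, against 0.01 over all genes. Ehd2 was the only member whose groups did not overlap, as was so in this direction for 1.55% of all genes, with ZT13 mice at 24.0 to 28.3 CPM and ZT1 mice at 17.3 to 22.5 CPM. Its log2 difference was 0.37 (SE 0.08, adjusted p = 0.103). It passed in a single fit of all 16 samples (adjusted p = 0.0369), with sample quality weights (0.0395, with 0.0369 to 0.380 over the alternatives) and without ZT1 LPS mouse 1 (0.0229, with 0.0229 to 0.286 over the fits that leave out a mouse). The mean log2 level of the endothelial markers differed by 0.33 in the same comparison, and scaling to it took the Ehd2 difference to 0.035 (SE 0.12, adjusted p = 0.795). Cavin1 differed by 0.18 (SE 0.06, adjusted p = 0.322) and Ehd4 by 0.17 (SE 0.08, adjusted p = 0.466). The other members had log2 differences of -0.05 (Cavin2) to 0.24 (Cav1).

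In PBS mice, limma also called 0 of 8 members between ZT13 and ZT1, against 0.52% of all genes, and 2 members (Cavin2 and Cavin3) had an unadjusted p under 0.05, against 13.5% of all genes. These were the members whose groups did not overlap, as was so for 18.7% of all genes. They moved in opposite directions. Cavin2 was at 6.14 to 6.64 CPM at ZT13 and 4.44 to 5.43 CPM at ZT1, a log2 difference of 0.36 (SE 0.11, adjusted p = 0.223). Cavin3 was at 6.97 to 7.67 CPM at ZT13 and 8.38 to 9.81 CPM at ZT1, a log2 difference of -0.30 (SE 0.10, adjusted p = 0.232). The members' median was 0.01 and that of all genes -0.00.

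The TOD × treatment interaction called 0 of 8 members, against 0.159% of all genes, and 4 members had an unadjusted p under 0.05, against 9.25% of all genes. Cavin1, Cavin3 and Ehd2 had positive values, a larger LPS effect at ZT13, and Cavin2 a negative value. The members' median interaction was 0.23 on the log2 scale, against 0.01 over all genes and 0.60 over the 8 endothelial markers, of which 3 were called. The comparisons share mice, so they are not independent of each other. Cavin2 and Cavin3 had low control groups at opposite times, and their interaction draws on the same PBS mice as their time comparison.

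**Figure D3:**
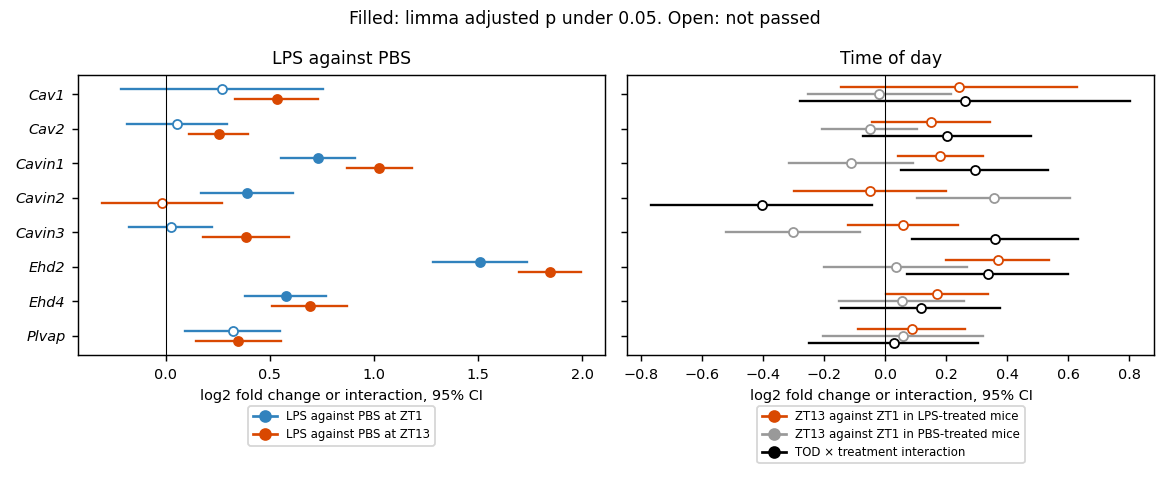
Left, log2 fold change of LPS against PBS at each time. Right, log2 difference of ZT13 against ZT1 in each treatment and the TOD × treatment interaction. Points are limma estimates with 95% CI, filled where the adjusted p is under 0.05. Of the 8 genes 4 are filled at ZT1 and 7 at ZT13, all to the right of 0 on the CPM scale, and 0 are filled for time of day. Under endothelial scaling Cavin2 and Ehd4 at ZT1, and all the filled genes but Ehd2 at ZT13, turn to below 0.

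Endothelial markers rose alongside the members. Over all tested genes, 16.2% changed and 11.1% rose at ZT1, and 28.6% changed and 19.2% rose at ZT13. Of the 8 markers (Pecam1, Cdh5, Tie1, Tek, Emcn, Esam, Erg and Egfl7) 7 rose at ZT1 and 8 at ZT13, and they summed to 77.2 to 82.6 CPM in ZT1 PBS mice, 107 to 157 CPM in ZT1 LPS mice, 61.5 to 73.9 CPM in ZT13 PBS mice and 160 to 185 CPM in ZT13 LPS mice. Their mean log2 level differed between LPS and PBS by 0.72 at ZT1 and 1.27 at ZT13. Pericyte markers overlapped between treatments, with sums of 160 to 208 CPM over all samples, 2 of 7 rising at ZT1 and 4 at ZT13. Smooth muscle markers overlapped too, at 12.95 to 25.9 CPM, and 0 of the 3 tested were called at either time. Fibroblast markers, from cells that also hold caveolae, summed to 73.3 to 98.7 CPM in ZT1 PBS mice and 102 to 131 CPM in ZT1 LPS mice. At ZT13 they summed to 70.3 to 72.5 CPM in PBS mice and 103 to 129 CPM in LPS mice. Of 5 microglia markers 4 rose and 1 fell at each time, with sums of 126 to 143 CPM in PBS mice and 141 to 244 CPM in LPS mice. Of 5 astrocyte markers 3 rose and 0 fell at each time, with sums of 1107 to 1145 CPM in ZT1 PBS mice, 1193 to 1377 CPM in ZT1 LPS mice, 1094 to 1198 CPM in ZT13 PBS mice and 1291 to 1411 CPM in ZT13 LPS mice. Of 6 cortical neuron markers 1 fell at ZT1 and 4 at ZT13, with sums of 1817 to 1937 CPM in PBS mice and 1638 to 1800 CPM in LPS mice. Neutrophil markers summed to 0.29 to 1.23 CPM in PBS mice and 7.70 to 73.1 CPM in LPS mice, with Elane, Ly6g and Mpo below 1 CPM in every sample. The part of these cell types in the members' change was not tested beyond the scaling given next.

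Scaling each sample to the endothelial markers sets the members against that rise. It moved the median log2 fold change of all genes to -0.68 at ZT1 and -1.22 at ZT13. Every gene shifts by the same amount within a comparison, so the order of the members cannot change. Ehd2 rose more than the mean of the 8 endothelial markers, by 0.79 (SE 0.17, adjusted p = 2.42e-05) at ZT1 and by 0.57 (SE 0.11, adjusted p = 1.05e-05) at ZT13. Cavin1 was at 0.02 against that mean at ZT1 (SE 0.17, adjusted p = 0.918) and below it at ZT13 (-0.24, SE 0.10, adjusted p = 0.0201). The other members ranged from -0.69 (Cavin3) to -0.14 (Ehd4) at ZT1 and from -1.29 (Cavin2) to -0.58 (Ehd4) at ZT13. A negative value here means a change below the mean of the marker genes.

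**Figure D4:**
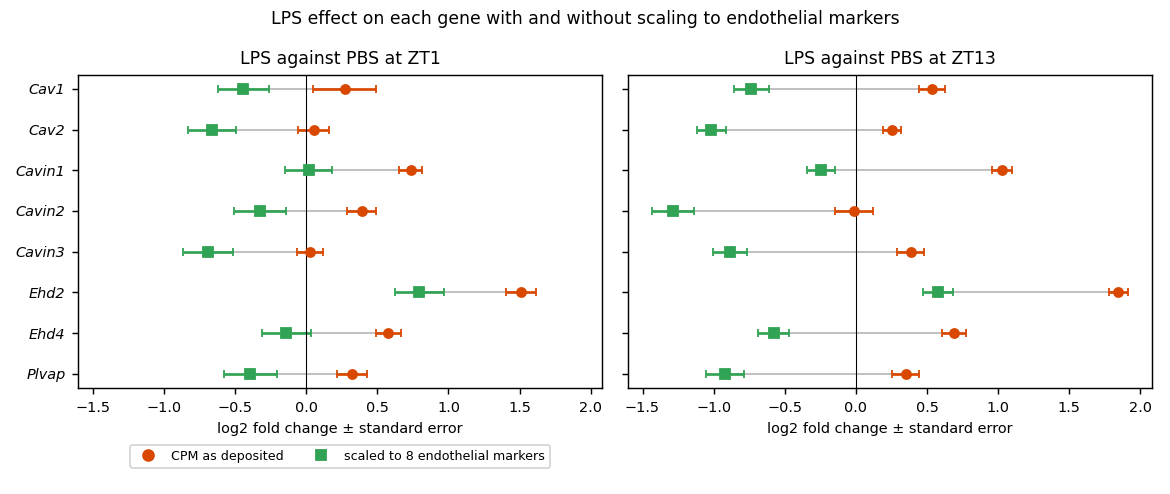
LPS effect on each gene as a log2 fold change ± standard error, on CPM as deposited (circles) and after scaling to 8 endothelial markers (squares), at ZT1 (left) and ZT13 (right). Ehd2 stays to the right of 0 on both scales at both times, Cavin1 falls to 0.02 at ZT1 and -0.24 at ZT13, and the other 6 genes lie below 0 after scaling.

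Levels of different genes were compared per kilobase of annotated exon, as CPM per kb. In the 6 PBS mice Cavin1 was highest at 6.65 ± 0.63 CPM per kb (SD, n = 6). Cav2 at 5.12 ± 0.24 and Cavin3 at 5.01 ± 0.69 CPM per kb followed, and their ranges overlapped when both times were pooled. Within ZT13 they did not, with Cavin3 at 4.195 to 4.61 CPM per kb and Cav2 at 4.66 to 5.25 CPM per kb. Ehd4 at 3.03 ± 0.22 and Plvap at 2.74 ± 0.23 CPM per kb overlapped. Cav1 at 2.07 ± 0.14 and Cavin2 at 1.86 ± 0.29 CPM per kb overlapped over both times but not within ZT1, where Cavin2 was at 1.45 to 1.78 and Cav1 at 1.92 to 2.21 CPM per kb, and Ehd2 was lowest at 1.32 ± 0.09 CPM per kb, with no PBS mouse at the level of Cavin2.

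In the 10 LPS mice Cavin1 was again highest, at 12.4 ± 1.2 CPM per kb (SD, n = 10), with no other member in its range. Ehd2 moved from the lowest place to 4.49 ± 0.71 CPM per kb, beside Ehd4 at 4.79 ± 0.52 CPM per kb. Cavin3 at 5.80 ± 0.54, Cav2 at 5.74 ± 0.63, Plvap at 3.53 ± 0.28, Cav1 at 2.85 ± 0.59 and Cavin2 at 2.13 ± 0.28 CPM per kb made up the rest. Each overlapped its neighbour in the order over both times pooled, but some neighbours did not overlap within ZT13. There Cav2 was at 5.64 to 6.41 and Ehd4 at 4.35 to 5.58 CPM per kb. Ehd2 was at 4.70 to 5.53 and Plvap at 3.28 to 3.86 CPM per kb. Cav1 was at 2.73 to 3.46 and Cavin2 at 1.55 to 2.65 CPM per kb.

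The balance of the neck gene and the pit genes differed between treatments, given here with no test. The ratio of Ehd2 to Cav1 per kb was 0.569 to 0.658 in ZT1 PBS mice and 0.629 to 0.668 in ZT13 PBS mice. It was 1.07 to 2.49 in ZT1 LPS mice and 1.43 to 2.03 in ZT13 LPS mice, so every LPS mouse lay above every PBS mouse. The ratio of Ehd2 to Cavin1 was 0.183 to 0.236 in PBS mice and 0.298 to 0.408 in LPS mice, again without overlap. The ratio of Cav2 to Cav1 overlapped between treatments, at 2.08 to 2.67 in PBS mice and 1.74 to 2.97 in LPS mice. Ratios within a sample do not depend on library scaling and show unequal change of the genes in them.

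Genes with the most similar pattern were ranked by the root-mean-square difference of log2 level over the 16 samples, each gene centred on its own mean. The 3 nearest were Arpc1b, Mall and Fermt3 for Ehd2 (0.14 to 0.16), Nfe2l2, Cotl1 and H2-M3 for Cavin1 (0.095 to 0.10), and Ftl1, P4hb and Ccnd3 for Ehd4 (0.068 to 0.085). For Cav1 they were Rasal3, Rcn3 and Lpcat2 (0.13 to 0.17), and for Cav2 Slc25a18, Reep3 and Acsl5 (0.069 to 0.075). For Cavin2 they were Zfp160, Suz12 and Golph3l (0.082 to 0.11), for Cavin3 Khnyn, Etv6 and Zfp710 (0.092 to 0.098), and for Plvap Gm43379, Arpc2 and Armc5 (0.088 in all 3). Among the members themselves Cav2 and Cavin3, at 0.15, and Cavin1 and Ehd4, at 0.16, were closest. The root-mean-square deviation from their own mean was 0.15 for Cav2 and 0.17 for Cavin3, against 0.45 for Cavin1 and 0.33 for Ehd4. A small difference between genes that vary little need not mean a shared pattern. The values are descriptions over samples that share groups.

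Other genes of caveolae, clathrin coats and transcytosis receptors showed a mixed response. Of 36 listed genes 34 were tested, and Cav3, the muscle caveolin, and Cd36, a fatty acid receptor, were too low. At ZT1 9 rose and 3 fell, where 16.2% of all tested genes changed, and at ZT13 10 rose and 6 fell, where 28.6% changed, which on endothelial scaling became 2 higher and 26 lower, and 2 higher and 32 lower. On that scale 86.1% and 95.1% of all genes were lower. At ZT13 median-of-ratios scaling gave 9 higher and 10 lower. The median log2 fold change of the 34 was 0.04 at each time, close to that of all genes. In LPS mice, in PBS mice and in the interaction, limma called 0 of the 34 for time of day, with 7, 6 and 6 at an unadjusted p under 0.05, against 10.6%, 13.5% and 9.25% of all genes.

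Among 13 other caveola and scission genes, 5 rose and 2 fell at ZT1, where 16.2% of all tested genes changed. At ZT13 4 rose and 2 fell, where 28.6% changed. Nos3, the endothelial nitric oxide synthase that binds caveolin-1, was at 8.01 to 8.58 CPM in ZT1 PBS mice and 17.2 to 22.9 CPM in ZT1 LPS mice, a 2.39-fold rise (log2 1.26, SE 0.09, adjusted p = 6.39e-06). At ZT13 Nos3 was at 6.48 to 8.31 CPM in PBS mice and 21.5 to 26.4 CPM in LPS mice, a 3.19-fold rise (log2 1.67, SE 0.09, adjusted p = 7.77e-09). Its interaction was 0.41 (SE 0.13, adjusted p = 0.288). Among the members and the 34 related genes only Ehd2 had a larger log2 fold change at either time, and all LPS mice were above all controls in Nos3.

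Nostrin, which traffics that enzyme from the membrane, rose by log2 0.62 (SE 0.17, adjusted p = 0.0296) at ZT1 and 0.83 (SE 0.15, adjusted p = 6.29e-04) at ZT13. Ehd1, a recycling endosome relative of Ehd2, rose by 0.45 (SE 0.07, adjusted p = 0.00107) and 0.83 (SE 0.07, adjusted p = 5.64e-07). Dnm2, the dynamin that cuts vesicle necks, rose by 0.39 (SE 0.06, adjusted p = 0.00146) and 0.46 (SE 0.05, adjusted p = 7.45e-06). The 2 genes that fell at both times, named after their values were seen, were Pacsin1 and Flot2. Pacsin1, a neuronal membrane-bending protein, changed by -0.23 at ZT1 and -0.19 at ZT13, and Flot2, a flotillin of membrane rafts, by -0.17 and -0.20.

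Calls among the clathrin coat genes were near the share over all genes. Of 9, 1 rose and 0 fell at ZT1, beside 16.2% of all genes changed, and 1 rose and 1 fell at ZT13, beside 28.6%. Picalm, a clathrin assembly protein, rose by log2 0.22 (SE 0.05, adjusted p = 0.0191) at ZT1 and 0.17 (SE 0.04, adjusted p = 0.00706) at ZT13. Ap2m1, a subunit of the AP-2 adaptor, changed by -0.17 (SE 0.03, adjusted p = 5.48e-04) at ZT13. Their median log2 fold change was -0.00 for ZT1 and -0.03 for ZT13.

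Of 12 transcytosis receptors and regulators, 3 rose and 1 fell at ZT1, where 16.2% of all tested genes changed. At ZT13 5 rose and 3 fell, where 28.6% changed. Acvrl1, the receptor ALK1, a receptor of endothelial cells, rose by log2 1.07 (SE 0.12, adjusted p = 1.29e-04) at ZT1 and 1.59 (SE 0.09, adjusted p = 1.54e-08) at ZT13. Insr, the insulin receptor, rose by 0.28 (SE 0.05, adjusted p = 0.00327) and Lrp8, an apolipoprotein E receptor, fell by 0.29 (SE 0.07, adjusted p = 0.0127) at ZT1. Both were called at ZT13 as well, Insr at 0.22 (SE 0.04, adjusted p = 4.43e-04) and Lrp8 at -0.20 (SE 0.06, adjusted p = 0.0164). At ZT13 Alpl, a vascular alkaline phosphatase, fell by 0.86 (SE 0.11, adjusted p = 4.65e-05), while Ager, the receptor RAGE, rose by 0.72 (SE 0.19, adjusted p = 0.00960).

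Mfsd2a, which limits caveolae in brain endothelium, had opposite signs at the 2 times. It was at 13.3, 13.04 and 14.0 CPM in ZT1 PBS mice and at 15.6, 19.7, 17.1, 15.8 and 16.5 CPM in ZT1 LPS mice. All LPS mice were above the controls, and Mfsd2a rose 1.25-fold (log2 0.32, SE 0.08, adjusted p = 0.0240). At ZT13 it was at 16.8, 22.5 and 21.6 CPM in PBS mice and at 18.9, 14.2, 15.6, 14.1 and 19.7 CPM in LPS mice. Here the groups overlapped and the log2 difference was -0.29 (SE 0.12, adjusted p = 0.0939). In PBS mice it was higher at ZT13 than at ZT1 without overlap, by 0.57 (SE 0.10, adjusted p = 0.0558), and its interaction was -0.61 (SE 0.16, adjusted p = 0.180), so neither passed.

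**Figure D5:**
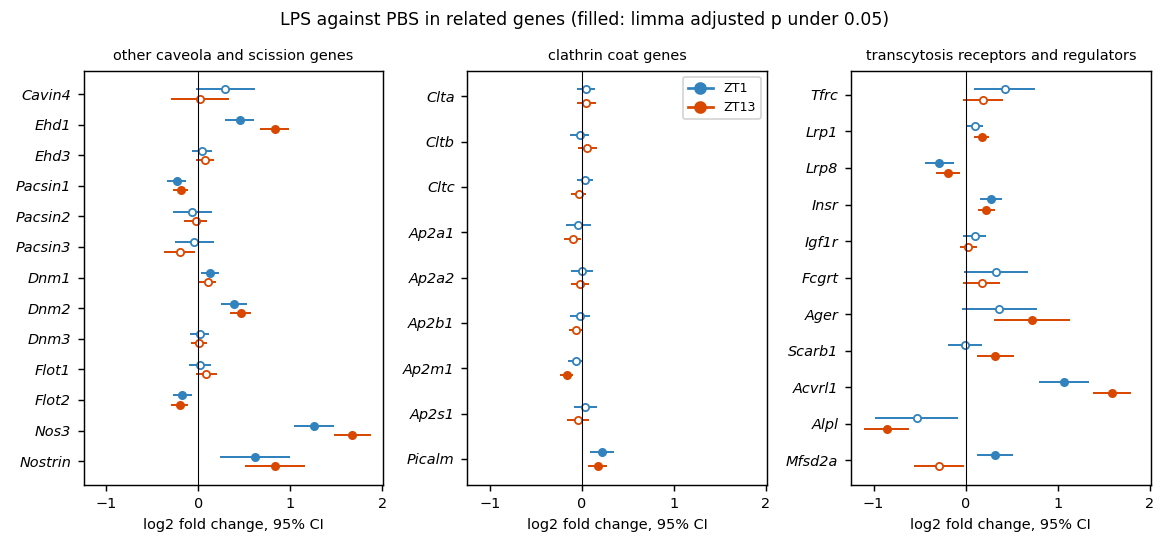
LPS against PBS at ZT1 and ZT13 for tested genes of the 3 related lists, as limma log2 fold change with 95% CI, filled where the adjusted p is under 0.05. Nos3, Ehd1, Nostrin and Acvrl1 lie furthest to the right on the CPM scale, the clathrin coat genes lie near 0, and Alpl lies furthest to the left at ZT13; most of these genes lie below 0 when scaled to endothelial markers.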

How the data were processed

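Total RNA of cortex was depleted of ribosomal RNA and sequenced. The authors deposited 1 table of CPM, reads on a gene per 1000000 reads on all genes of the sample. Per the labels, the processing used bcl2fastq and DRAGEN (version 4.0.3-8) on GRCm38. The table has 55774 lines, of which 287 repeat a gene. Depth was read from the commonest positive value of each column, taken as the CPM of 1 read. Only 80.7% to 82.8% of values up to 20 reads were whole within 0.01, so counts were not recovered. The titles gave the groups. The labels do not say how mice were caged or batched, so the p-values measure the spread between these samples. limma (version 3.58.1 in R 4.3.3) was fitted with an intensity trend to log2(CPM + 0.5), for genes at 1 CPM or more in at least 3 samples, and fold changes understate those of low genes. Pairs of groups were fitted alone and the interaction on all 16 samples. The fits were also run on simulated counts with the same dispersion for every gene. That setting is simpler than these CPM, so the run does not measure the error of the fits here. The alternatives were pseudocounts of 0.1 and 1, 2 other filters, 3 scalings, a single fit, sample weights, no trend, a replicate block, leaving out each mouse and, added later, a choroid plexus covariate. Locations and exon lengths are from GENCODE M21 and promoters from RefSeq. The members, lists and alternatives were chosen with earlier results of these data known. All members are named. Of the 3 related lists, up to 4 genes per comparison with the largest change past the threshold, Mfsd2a and Nos3 are named, except 1 gene that is not reported here. The plots were drawn in Python 3.11.15 (matplotlib 3.10.9) from tables written with pandas 2.3.3.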

Additional observations from a re-analysis of the deposited data

Results flagged for a closer look

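Cavin1 in ZT13 LPS mice held a single low sample, mouse 5 at 44.0 CPM, beside 4 mice between 47.3 and 48.6 CPM. Its gap to the next mouse was 0.72 of the range of the group, above Dixon's 95% critical value of 0.71. The members, Nos3 and Mfsd2a were looked at in 20 groups of 5 mice, and chance flags about 1 in 20.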

How the results depend on the processing

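Precision is limited by 3 control mice per time and by CPM without counts. Over 856 values of single members under the alternatives, 783 kept their direction and their side of the threshold, and 776 of 816 did so without endothelial scaling. Median-of-ratios scaling took the share of all called genes that were higher from 68.2% to 54.1% at ZT1 and from 67.2% to 51.0% at ZT13, and quantile normalization to 51.1% and 44.99%. The cause of each loss below was not tested.

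Quantile normalization left 4 of 7 members called at ZT13. A single fit or sample weights called 1 member and 2 related genes between times in LPS mice, where the reported fit called none. Of all 18859 genes these fits called 122 and 225 there, against 4 in the reported fit. Testing all genes above 0 CPM left 7 of 12 related genes called at ZT1, where 1605 of 38565 genes were called. In PBS mice 1 related gene was called between times with a minimum of 5 CPM, with quantile normalization or with the choroid plexus covariate. Those fits called 158 of 13238, 199 of 18859 and 94 of 18859 genes.

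Without each mouse in turn, members called ranged over 3 to 5 at ZT1, 6 to 7 at ZT13 and 0 to 1 (1 without ZT1 LPS mouse 1) between times in LPS mice. Of all 18859 genes, 1767 to 3758 were called at ZT1 and 4329 to 5547 at ZT13. Between times, 0 to 345 of them were called in LPS mice (345 without ZT1 LPS mouse 1) and 12 to 87 in PBS mice. Related genes called ranged over 7 to 14 at ZT1 (7 without any one of the 3 controls), 14 to 18 at ZT13, 0 to 2 between times in LPS mice (2 without ZT1 LPS mouse 1) and 0 to 1 in PBS mice (1 without ZT13 PBS mouse 1 or 3). Signs of log2 values turned within the range for Cavin3 at ZT1 (-0.042 to 0.066), Cavin2 at ZT13 (-0.098 to 0.080), Cavin2 (-0.13 to 0.046) and Cavin3 (-0.0019 to 0.093) between times in LPS mice, Cav1 (-0.079 to 0.019), Cav2 (-0.082 to 0.0015), Ehd2 (-0.011 to 0.10) and Ehd4 (-0.00013 to 0.12) between times in PBS mice, and the Plvap interaction (-0.049 to 0.071).

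Scaling to endothelial markers called 28 and 34 related genes at ZT1 and ZT13. For time of day it called 1 member and 17 related genes in LPS mice, 1 and 11 in PBS mice, and 3 and 28 in the interaction. The same scaling called 8607, 3179 and 11928 of all 18859 genes there, with median log2 values of -0.32, 0.22 and -0.54. It turned signs at ZT1 for Cav1 (-0.44), Cav2 (-0.66), Cavin2 (-0.33), Cavin3 (-0.69), Ehd4 (-0.14) and Plvap (-0.39). At ZT13 it did so for Cav1 (-0.74), Cav2 (-1.02), Cavin1 (-0.24), Cavin3 (-0.89), Ehd4 (-0.58) and Plvap (-0.92). Between times it did so in LPS mice for Cav1 (-0.092), Cav2 (-0.18), Cavin1 (-0.15), Cavin3 (-0.28), Ehd4 (-0.16) and Plvap (-0.25), and in PBS mice for Cav1 (0.20), Cav2 (0.17) and Cavin1 (0.11). In the interaction it did so for Cav1 (-0.29), Cav2 (-0.35), Cavin1 (-0.26), Cavin3 (-0.19), Ehd2 (-0.22), Ehd4 (-0.44) and Plvap (-0.53).

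Small values turned sign at ZT1 for Cav2 under quantile normalization (-0.027), and for Cavin3 under median-of-ratios scaling (-0.018), quantile normalization (-0.10) and the covariate (-0.0066), as did the Plvap interaction under quantile normalization (-0.029). Same-numbered mice had residual correlations of -0.20 to 0.33 over 14 pairs, with 1 above 0.1. Pairing by number was not shown, and so few mice per group cannot exclude it. With the replicate number as a block, 3 members were called at ZT1 (Cavin2 had adjusted p = 0.0948) and 7 at ZT13, and signs turned for Cav2 (-0.035) and Cavin3 (-0.0094) at ZT1 and Cavin2 (0.13) at ZT13.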
